A study of Homo sapiens with 6 samples.

Results

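Calcium-activated potassium channels were followed in A-498 cells, an established human renal cell carcinoma line, with and without zebularine, a cytidine analogue that inhibits DNA methyltransferases. The set holds 6 genes: KCNN1, KCNN2, KCNN3, KCNN4, KCNMA1 and KCNMB4. Their probe sets were taken from the platform annotation wherever it gave exactly 1 of these symbols, dim ones included. This yielded 8 of the 22277 probe sets on the array for 5 of the 11963 named genes, and KCNN2 was not analysed here. The set was chosen by the measured difference of KCNN4 between these treated and untreated arrays, so the treated against untreated values of its members are given as a description without p-values.

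In 3 numbered experiments, 1 untreated culture (0 µM) and 1 culture with 1000 µM zebularine were kept for 120 h, were split on the way, and gave 1 Affymetrix array each. Both groups are the same cell line with no genetic change, and the titles call the replicates biological. A result from these arrays holds for 1 line. Whether zebularine lowered DNA methylation in these cultures was not measured on the arrays. The series asked how expression changes overall after inhibition of DNA methyltransferases.

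Channels of this family let potassium leave the cell when cytosolic calcium rises, which makes the membrane potential more negative. The KCNN genes encode small- and intermediate-conductance channels that sense calcium through bound calmodulin and do not need depolarisation. KCNMA1 encodes the pore-forming subunit of the large-conductance channel, which responds to both voltage and calcium and whose gating is tuned by beta subunits such as KCNMB4. KCNN1, KCNN2 and KCNN3 are best known from neurons, KCNN4 from lymphocytes, red blood cells and epithelia, and KCNMA1 from smooth muscle, neurons and the kidney tubule.

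Since zebularine acts on the enzymes that methylate cytosine in CG dinucleotides, the 250 bases before the transcription start of KCNN4, the member that differed most, and of KCNMA1, a member with bright probe sets on all arrays, are shown with each CG in capitals. Both come from RefSeq on GRCh38.p14 and are written 5′ to 3′ on the gene's own strand, which is the minus strand for both.
KCNN4, chr19:43780974-43781223: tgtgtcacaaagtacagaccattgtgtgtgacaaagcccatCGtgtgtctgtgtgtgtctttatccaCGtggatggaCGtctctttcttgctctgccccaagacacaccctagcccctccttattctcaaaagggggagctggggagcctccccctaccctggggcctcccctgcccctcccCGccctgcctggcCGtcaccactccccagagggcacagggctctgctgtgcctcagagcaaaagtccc
KCNMA1, chr10:77637809-77638058: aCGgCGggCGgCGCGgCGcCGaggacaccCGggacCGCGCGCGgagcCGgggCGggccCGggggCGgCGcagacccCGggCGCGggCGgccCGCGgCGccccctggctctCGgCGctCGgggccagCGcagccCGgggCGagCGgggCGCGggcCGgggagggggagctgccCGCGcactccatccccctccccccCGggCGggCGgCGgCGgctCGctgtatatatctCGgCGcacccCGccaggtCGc

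The stretch before KCNN4 holds 5 CG, and 38.1% of the 35116 windows of this length in the RefSeq table hold as few or fewer. That before KCNMA1 holds 46, a count reached by 0.413% of windows. The table gave 9 windows for 5 of the 6 genes. In those of KCNN1 there were 25 and 24 CG, in that of KCNN2 17, and in those of KCNN3 2, 9 and 11, around the median of 11 over all windows. A second KCNMA1 window inside the gene held 1. The binding motif of AP-1 (TGANTCA, which reads the same on both strands) occurred 0 times in the KCNN4 window, in 1 of the 3 KCNN3 windows and 2 times in the second KCNMA1 window, against 6.57% of all windows with a match. The EGR1 motif (GCGTGGGCG, either strand) had no match in any of the 9, against 0.72% of all windows. These are counts of letters, not of methylated sites or of bound factors.

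KCNN4 was dim in untreated cells and clearly brighter in every treated culture. Its single probe set, 204401_at, read 85.1, 23.6 and 30.7 signal units in untreated cultures 1, 2 and 3, and 321.3, 323.2 and 273.7 in the treated cultures of the same numbers. The groups did not overlap: the lowest treated signal was 3.22 times the highest untreated one. Group means were 46.5 ± 33.6 and 306 ± 28.0 (SD, n = 3), a ratio of 6.59. Relative to their level the untreated cultures varied more (SD 0.72 against 0.13 of log2 values), and culture 1 was the only one of them to reach 78.6, the level used to leave out dim probe sets. The treated to untreated signal ratio was therefore smallest in experiment 1, at 3.78, against 13.7 in experiment 2 and 8.92 in experiment 3.

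On the log2(signal + 16.34) scale, on which all differences below are given, KCNN4 was 1.73, 3.09 and 2.62 higher in experiments 1, 2 and 3, a mean of 2.48 ± 0.69 (SD, n = 3). By mean difference it took place 10 among 13545 tested probe sets ordered from the highest rise. Within single experiments it stood at places 178, 15 and 49 of that order. Because the untreated signals were close to the pseudocount, the size on this scale depends on it: the difference was 2.81 with a pseudocount of 4.08 and 1.77 with one of 65.35. KCNN4 passed the filter on dim signals through its treated arrays, so its presence among the tested probe sets and its difference are not separate facts. The ratio of 3' to 5' signal of GAPDH, a sign of RNA integrity, was also lower on the treated array of each experiment (1.52 and 1.34, 1.19 and 1.16, 1.07 and 1.01), whereas that of ACTB was higher in experiment 1 and lower in the others (3.10 and 5.25, 2.38 and 2.06, 1.71 and 1.49). Their part in the result was not tested.

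**Figure D1:**
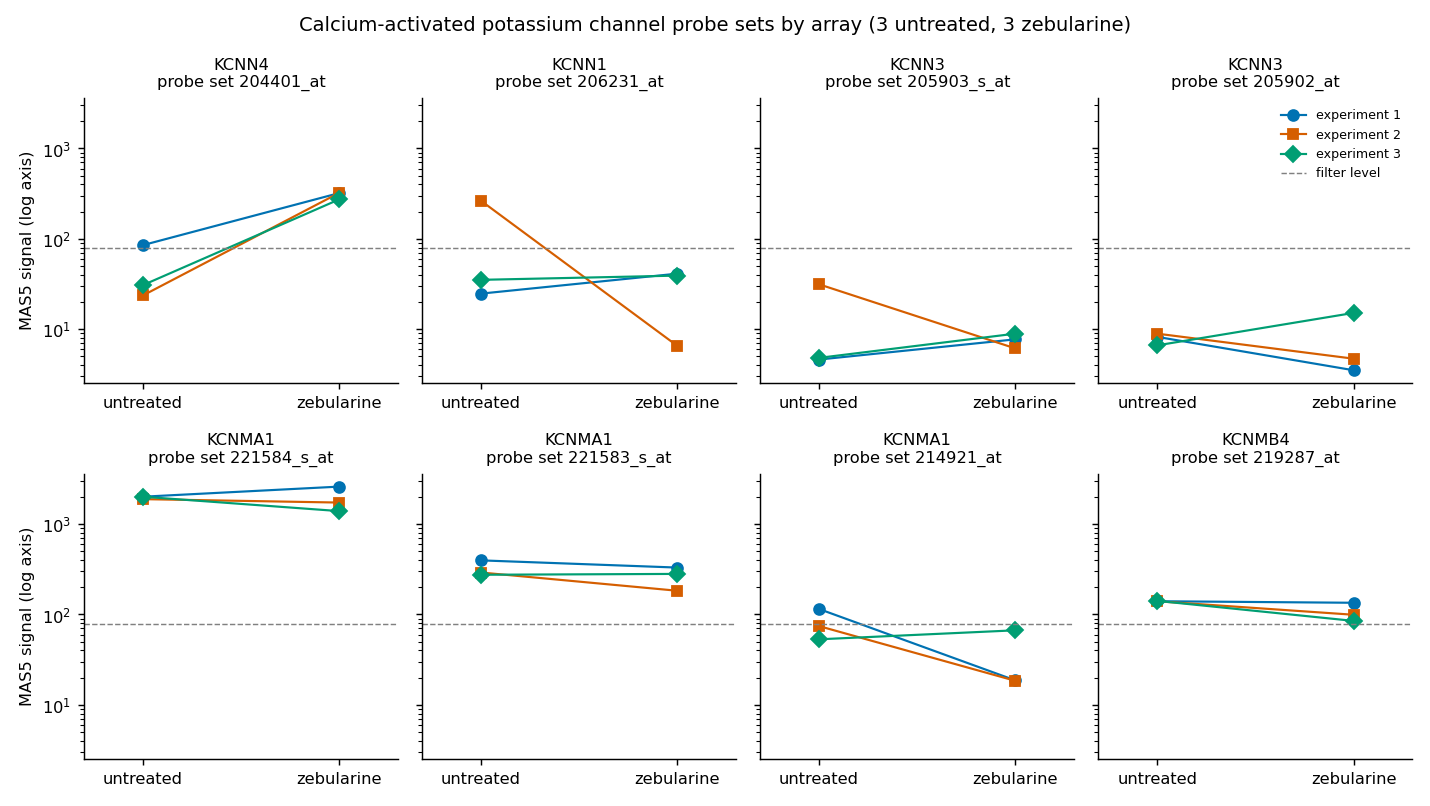
MAS5 signal (log axis) of the 8 probe sets of calcium-activated potassium channel genes on each array, with a line joining the untreated and zebularine culture of 1 experiment and a dashed line at the filter level of 78.6. The 3 KCNN4 lines end at treated signals between 273.7 and 323.2, while the bright KCNMA1 probe set 221584_s_at stays between 1395.3 and 2607.7 on all 6 arrays.

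The other KCNN genes on the array gave little or no usable signal. KCNN1, which encodes a small-conductance subunit (probe set 206231_at), read 24.7, 263.3 and 35.1 in untreated and 41.1, 6.5 and 39.1 in treated cultures 1, 2 and 3. Untreated culture 2 was the only array above the filter level, and the groups overlapped. The mean difference of -1.01 ± 2.27 (SD, n = 3) came from experiment 2, as the differences were 0.49, -3.61 and 0.11. It was -0.14 without untreated 2, -0.57 without zebularine 2 and 0.30 without experiment 2.

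KCNN3, another small-conductance subunit gene, was near the bottom of the scale at both of its probe sets. Probe set 205903_s_at read 4.6, 31.3 and 4.8 in untreated and 7.7, 6.1 and 8.9 in treated cultures. Probe set 205902_at read 8.2, 8.9 and 6.6 in untreated and 3.5, 4.7 and 15.1 in treated cultures. No array reached the filter level at either, the groups overlapped at both, and the differences of -0.21 ± 0.76 and -0.04 ± 0.43 (SD, n = 3) changed sign when single arrays were left out. A change of KCNN1 or KCNN3 could not be resolved at these signals.

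KCNMA1, the large-conductance pore subunit, was bright with and without the drug. Its brightest probe set, 221584_s_at, read 2015.3, 1894.1 and 2014.5 in untreated and 2607.7, 1735.5 and 1395.3 in treated cultures. Untreated cultures were nearly equal, and the treated ones lay on both sides of them. The mean difference was -0.09 ± 0.45 (SD, n = 3), made of 0.37, -0.13 and -0.52 in experiments 1, 2 and 3, and without experiment 3 it was 0.12.

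A second KCNMA1 probe set, 221583_s_at, read 397.4, 291.6 and 275.4 in untreated and 330.7, 183.1 and 281.4 in treated cultures. The groups overlapped here too, and the difference was -0.28 ± 0.33 (SD, n = 3). The third probe set, 214921_at, read 114.9, 74.3 and 53.1 in untreated and 18.6, 18.4 and 66.8 in treated cultures. It was left out as dim, with 1 array above the filter level, and its differences of -1.91, -1.38 and 0.26 disagreed in sign between experiments. The 3 KCNMA1 probe sets thus had negative mean differences without moving together: in experiment 1 the brightest was higher in treated cells while the other two were lower, and in experiment 3 the reverse was seen. The names ending in _s_at mark probe sets that can bind more than 1 transcript.

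KCNMB4, a beta subunit that modifies gating of the KCNMA1 channel, was slightly lower in all treated cultures. Probe set 219287_at read 140.2, 140.1 and 141.5 in untreated cultures 1, 2 and 3, and 134.8, 99.3 and 84.9 in the treated ones. The groups did not overlap, and the untreated cultures were almost identical, at 141 ± 0.781 against 106 ± 25.7 (SD, n = 3). The gap differed between experiments, at -0.05, -0.44 and -0.64, with a mean of -0.38 ± 0.30. In experiment 1 both arrays were close, and most of the difference lay in experiments 2 and 3.

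Of the 8 probe sets, 4 passed the filter, and they stood for KCNN4, KCNMA1 and KCNMB4. limma with Benjamini-Hochberg adjustment called 1 of these 3 genes, KCNN4, at an adjusted p under 0.05, against 0.642% of all 7938 tested genes. It called the same 1 gene with the experiment number as a block, against 4.45% of all. As KCNN4 was why the set was formed, nothing is read from this count, from the call or from where it was lost. Non-overlapping groups were found for KCNN4 (treated above, as for 7.94% of the 22215 probe sets that are no controls) and KCNMB4 (treated below, as for 6.76%). The call of KCNN4 was lost without the filter, without limma's mean-variance trend, without untreated 3, zebularine 1, zebularine 2 or zebularine 3, and without any 1 experiment, while its difference stayed between 2.18 and 2.89 when arrays were left out.

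**Figure D2:**
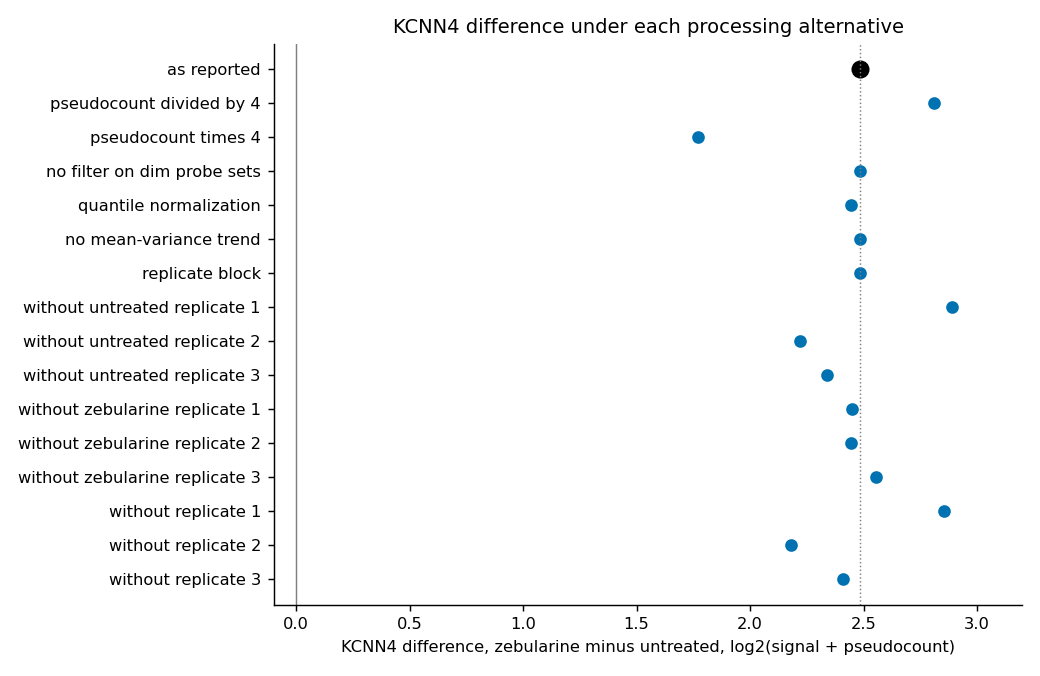
Difference of KCNN4 between zebularine and untreated cultures, in log2(signal + pseudocount), for each way of processing the values, with the reported value of 2.48 as the large black point and dotted line. The points run from 1.77 with the larger pseudocount to 2.89 without untreated culture 1. As the groups did not overlap, no pseudocount or choice of arrays could change the sign, and only the size can vary.

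Beyond these genes, the array named 60 other genes whose symbols start with KCN, which encode other potassium channel subunits and their partners or lie beside them. Only 13 of the 60 were bright enough to test, and limma called 0 of them in either direction, against 0.642% of all tested genes, and 3 had an unadjusted p under 0.05, against 13.1% of all. With the experiment as a block it called 1, lower in treated cells, against 4.45%, and 3 had an unadjusted p under 0.05, against 21.3%. These 4 shares are also the background for the lists that follow. The median difference of the 13 was 0.06, with 7 positive and 6 negative, and the median of all tested genes was -0.01.

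The inward rectifier gene KCNJ16, whose product works in kidney tubule cells, was the blocked call. It read 1141.3, 936.4 and 1229.3 in untreated cultures and 57.1, 88.2 and 615.2 in treated cultures 1, 2 and 3. The groups did not overlap, and treated culture 3 kept a far higher signal than the other two. The difference was -2.72 ± 0.59 (standard error; limma, adjusted p = 0.0692 unblocked and 0.00638 blocked), made of -3.98, -3.19 and -0.98 in the 3 experiments. It was -3.67 without zebularine 3 (limma, adjusted p = 0.000787) and -2.31 with the larger pseudocount (limma, adjusted p = 0.0475), and over all alternatives the adjusted p of limma ran from 0.000787 to 0.317.

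The other bright potassium channel genes did not pass the test. The leak channel gene KCNK1 read 1047 ± 193 without the drug and 1603 ± 386 with it (SD, n = 3), a difference of 0.60 ± 0.26 (standard error; limma, adjusted p = 0.374 unblocked and 0.114 blocked). It was higher in each experiment, by 0.58, 0.53 and 0.69. KCNK3, another leak channel gene, differed by 0.54 ± 0.45, the channel partner gene KCNAB2 by 0.45 ± 0.40, KCNS3, a silent subunit of voltage-gated channels, by 0.22 ± 0.35 and the silent subunit gene KCNG1 by -0.01 ± 0.37. KCNS3 was at -0.02 without untreated 1 and at -0.06 without zebularine 3. Chosen after its values were seen, KCNJ2, a strong inward rectifier, read 17.2, 22.9 and 30.8 in untreated and 115.2, 80.7 and 169.1 in treated cultures. It was the tested KCN gene outside the set with the largest positive difference, 1.75 ± 0.60 (standard error; limma, adjusted p = 0.251 unblocked and 0.14 blocked). It reached the filter level on its treated arrays only.

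**Figure D3:**
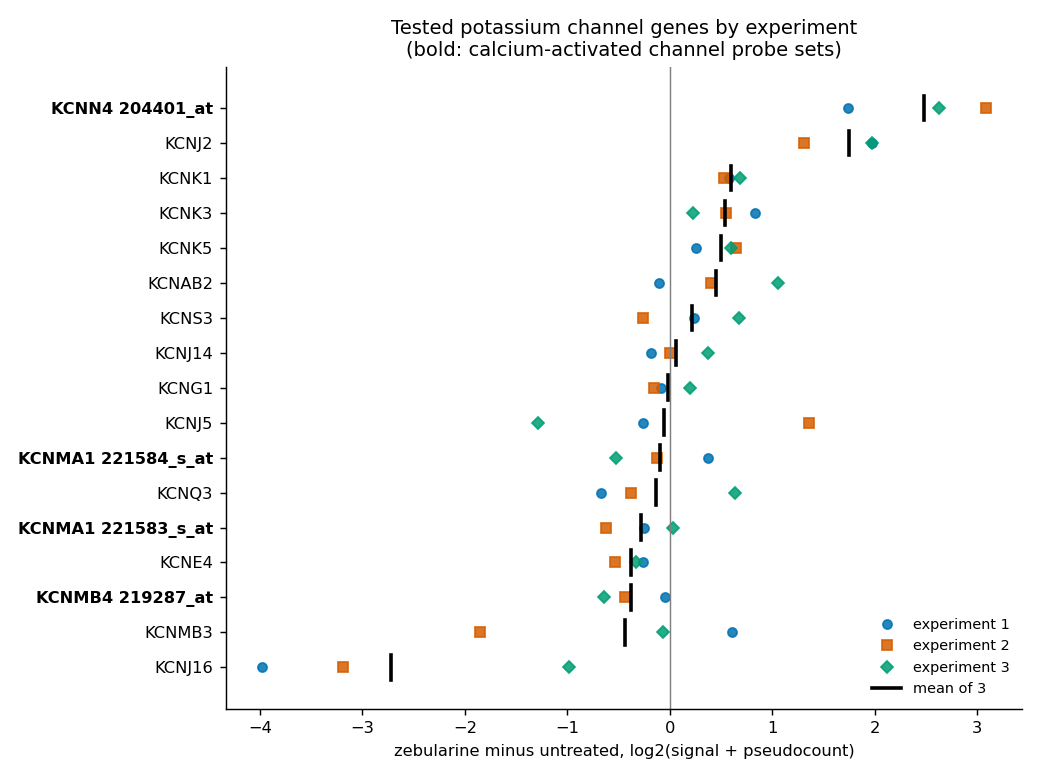
Difference between the zebularine and the untreated culture of each experiment, in log2(signal + pseudocount), for the 13 tested KCN genes and the 4 tested probe sets of calcium-activated channels (bold); coloured symbols are experiments and black bars their means. KCNN4 at 2.48 and KCNJ16 at -2.72 lie at the ends, and the means of KCNMA1 and KCNMB4 lie between -0.38 and -0.09. The set was chosen by the difference of KCNN4, so its place at the positive end is not a result.

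The proteins that assemble with these channels or set their activity were examined next. Of 28 listed genes 18 were on the array under 1 symbol and 14 were tested; the calmodulin genes were not analysed here. limma called 0 of the 14 with or without the block (3 and 2 at an unadjusted p under 0.05, against 21.3% and 13.1% of all genes), their median difference was -0.06, and 7 were positive. The brightest were NME1, of the nucleoside diphosphate kinase family, at 0.04 ± 0.28, and PPP2CB, a catalytic subunit of protein phosphatase 2A, at 0.29 ± 0.23 (standard error; limma, adjusted p = 0.973 and 0.638). Chosen after its values were seen, MTMR6, a lipid phosphatase described as an inhibitor of the KCNN4 channel, differed by 0.91 (limma, adjusted p = 0.24 unblocked and 0.0633 blocked). Other beta subunits of the large-conductance channel, given as relatives of KCNMB4, were dim: KCNMB1 ran from 9.4 to 115.5 and KCNMB2 from 9 to 79.1 over the 6 arrays, and KCNMB3 differed by -0.44 ± 0.77 (standard error; limma, adjusted p = 0.857).

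Calcium is what opens these channels, and genes that bring it into the cytosol formed another list. Of 42 listed genes of calcium entry and release, 36 were on the array and 17 were tested. limma called 0 with or without the block, against 4.45% and 0.642% of all genes. At an unadjusted p under 0.05 there were 2 and 0, against 21.3% and 13.1%. Of the 17 differences 11 were negative, and the median was -0.26. ITPR3, a calcium release channel of the endoplasmic reticulum, differed by -0.28 ± 0.28, and PIEZO1, a mechanically gated channel, by -0.51 ± 0.43 (standard error; limma, adjusted p = 0.726 and 0.662).

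Of 12 genes that remove calcium from the cytosol 11 were on the array and 6 were tested. limma called 0 (2 at an unadjusted p under 0.05, against 13.1% of all genes) and, with the block, 1 that was higher in treated cells, against 4.45% of all. The median difference was 0.21. The one called with the block was ATP2B1, a plasma membrane calcium pump, named after its values were seen. It read 552, 342.6 and 665.2 in untreated and 994.3, 978.1 and 1339.4 in treated cultures, without overlap. The difference was 1.10 ± 0.29 (standard error; limma, adjusted p = 0.126 unblocked and 0.0212 blocked, range over the alternatives 0.0212 to 0.578). A related pump gene, ATP2B4, differed by 0.73 ± 0.31 (standard error; limma, adjusted p = 0.366) and by 0.37 without zebularine 1, and the reticulum pump gene ATP2A2 by -0.09 ± 0.30.

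Chloride channels and transporters that act with potassium efflux in volume regulation formed a further list. Of 23 listed genes 16 were on the array and 8 were tested. limma called 0 with or without the block, against 4.45% and 0.642% of all genes. At an unadjusted p under 0.05 there were 0 and 0, against 21.3% and 13.1%. The median difference was -0.08, and it was 0.07, -0.46 and 0.36 in experiments 1, 2 and 3. LRRC8D, a subunit of the volume-regulated anion channel, differed by -0.42 ± 0.24, and the chloride transporter gene CLCN3 by 0.12 ± 0.25 (standard error; limma, adjusted p = 0.512 and 0.889).

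REST, a repressor, and the AP-1 and EGR1 factors have been described as regulators of KCNN4 transcription. All 10 listed genes were on the array and 9 were tested; limma called 0 (1 at an unadjusted p under 0.05, against 13.1% of all genes), and 1 was lower with the block, against 4.45% of all genes called. The median difference was -0.25. REST differed by 0.11 (limma, adjusted p = 0.904), a value given although the naming rule did not pick it. The brightest members were JUN at 0.15 ± 0.36 and JUND at -0.49 ± 0.32 (standard error; limma, adjusted p = 0.901 and 0.566). JUND was at -0.23 without untreated 1 and -0.86 without untreated 2.

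EGR1, an immediate early factor, was the gene called with the block and was named after its values were seen. It read 873.9, 1527.5 and 214.8 in untreated and 144.1, 839.8 and 19 in treated cultures. The groups overlapped, but within each experiment the treated culture was lower. The differences were -2.47, -0.85 and -2.71, with a mean of -2.01 ± 0.91 (standard error; limma, adjusted p = 0.387 unblocked and 0.00814 blocked, range over the alternatives 0.00814 to 0.725).

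**Figure D4:**
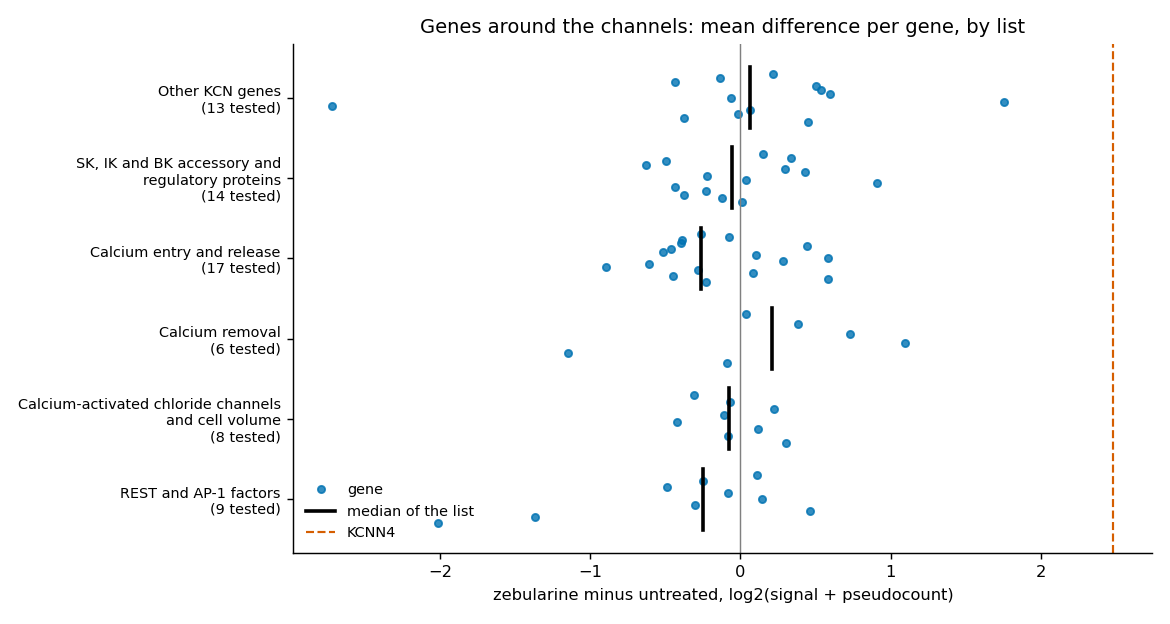
Mean difference of each tested gene between zebularine and untreated cultures, in log2(signal + pseudocount), in 6 lists of genes around the channels; dots are genes, black bars list medians and the dashed line KCNN4 at 2.48. List medians lie between -0.26 and 0.21. KCNN4 was chosen for its difference, so its place to the right of all listed genes is not a result.

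The genes whose pattern over the 6 arrays was most like that of KCNN4 were found by Pearson correlation of log2 values over 7937 other tested genes. They were RTCA (r = 0.994), VCPKMT (0.994), THAP10 (0.991), PLAUR (0.991) and NT5E (0.988). These values are descriptions over 6 arrays in 2 groups: 1.52% of the genes had an r above 0.9. Since the 5 were picked for this likeness, their higher treated signals follow from the choice. No test is read for them, and the p-values of PLAUR given below, as a neighbour of KCNN4, carry the same limit. PLAUR, the urokinase receptor gene, read 868.1, 490.4 and 619 in untreated and 1447.5, 1680.7 and 1545.8 in treated cultures. NT5E, which encodes an ecto-enzyme that makes adenosine, read 315.9, 135.1 and 155.9 in untreated and 960.7, 1071 and 1297.9 in treated cultures.

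Array medians ran from 117.9 to 140.8 signal units, and spike-in controls were dimmer on both arrays of experiment 3 (medians 1239.2 and 1456.8 against 3551.1 to 4103.5). Of 9 measured renal epithelial markers 7 passed the filter, among them PAX8, KRT8, KRT18 and VIM, while CDH1 and LRP2 did not. Lymphocyte markers, of a cell type known for KCNN4, were dim throughout: 0 of 7 passed the filter, none was at 0, and their summed signal was 197.6 to 355.4 in untreated and 215.6 to 372.6 in treated cultures. The same held for 0 of 4 macrophage and 0 of 2 erythroid markers. Of 6 neuron markers NEFL, NEFM and SNAP25 passed, with summed signals of 3635.1 to 5025.1 in untreated and 4762.4 to 7958.9 in treated cultures. Of 5 smooth muscle markers ACTA2 passed (summed signals 618.9 to 982 and 520.6 to 712.8), and of 4 endothelial markers TEK passed (188.4 to 218.8 and 163.1 to 266.2). limma called 0 markers of any of these lists, against 0.642% of all tested genes. At an unadjusted p under 0.05 there were 1 renal epithelial marker and 0 of the others, against 13.1% of all. In bulk RNA a smaller share of expressing cells and less RNA per cell cannot be told apart.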

How the data were processed

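The deposited values are linear intensities, 1 per probe set and array, which the authors computed with MAS5 per the submitters' processing notes. Its version and scaling target were not given in the sources used here. The method corrects for background and for mismatch probes, which leaves dim signals noisy, and the small number of arrays bounds the precision. After 62 control probe sets were dropped from 22277, intensities were transformed to log2(signal + 16.34), a pseudocount of the median divided by 8. Testing covered the 13545 probe sets that reached 78.6, the 40th percentile, on at least 3 of 6 arrays. On this scale the fold of a dim gene is understated. Names were given to the 19070 probe sets with 1 symbol (1043 had several and 2164 none listed), and genes outside the set were represented by their brightest tested probe set.

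limma 3.58.1 (R 4.3.3) fitted each probe set with lmFit and moderated the variances with a trend in eBayes. Tests were two-sided, p-values were adjusted by Benjamini-Hochberg across all tested probe sets, and a call required an adjusted value under 0.05. The fit was tested on simulated data, where without the block it missed nearly all of the smaller added changes and many of the larger ones. The simulated arrays of a number shared no effect, so the outcome with the block does not carry over to these data. A gene without a call in either fit may still have changed. Plots used matplotlib 3.10.9 (Python 3.11.15). The labels give both arrays of a number 1 experiment name, and after subtracting group means such arrays correlated across probe sets at 0.323, 0.21 and 0.272 in experiments 1, 2 and 3. The numbers therefore pair the arrays, and blocked values are given where they change a call. Standard errors, and p-values not marked as blocked, come from the fit without the block and ignore this pairing. At most 0.198% of values were equal between any 2 arrays. All p-values reflect only how much these cultures of 1 line varied.

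The members and the gene lists were chosen with earlier results of these data known. Named were all members, the 6 brightest and any called KCN genes, up to 4 called or else the 2 brightest genes of each list, and the 5 genes most like KCNN4; any other gene is marked as picked later. Promoter sequences are those of RefSeq on GRCh38.p14. Alternatives varied the pseudocount, filter, normalization, trend, block, probe set choice and arrays.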

Additional observations from a re-analysis of the deposited data

How the results depend on the processing

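Of 15 values and counts, the KCNN4 difference was 1.77 with the pseudocount times 4 and 2.18 to 2.89 when arrays or experiments were left out. KCNN1 ran from -1.75 to 0.30 and KCNMA1 probe set 214921_at from -1.65 to -0.56 over these. Probe sets called by limma numbered 84, and 55 with the pseudocount divided by 4, 42 without the filter, 6 without the trend and 572 with the replicate block. Leaving out arrays or experiments gave 0 to 96, with 0 without zebularine 2 or without experiment 2 (1315 and 1583 at an unadjusted p under 0.05). Of the other KCN genes 1 was called with the pseudocount times 4 and with the block, and 0 to 1 when arrays were left out. With the block 1 gene of calcium removal and 1 of the REST and AP-1 list were called. Among genes with a printed p, the block changed the call of KCNJ16, ATP2B1, EGR1 and PLAUR and of no other. Of 231 alternative values 211 stayed within the spread, which allows a change of sign, or gave an equal or similar count, such as 96 against 84. The filter, trend and block settings cannot alter a member difference, so part of this number was fixed in advance. The cause of the shifts in values and counts was not tested. KCNN1 and KCNN3 signals were too dim for a direction.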

Other observations

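Genes next to KCNN4 were chosen by position after the data were seen. Of the 10 nearest genes with a named probe set on chromosome 19, 5 on either side in the RefSeq table, 4 were bright enough to test. limma called 0 of the 4 at their brightest probe sets (1 at an unadjusted p under 0.05), against 0.642% of all genes called and 13.1% at that unadjusted p. PLAUR, the third of these genes on one side, had a difference of 1.26 ± 0.27 (standard error; limma, adjusted p = 0.0573 unblocked and 0.0141 blocked, range over the alternatives 0.0141 to 0.548). The other tested probe sets of PLAUR differed by 1.54 and 1.28 (limma, adjusted p = 0.0295 and 0.0698), the first of which passed. PLAUR was also among the 5 genes picked above for likeness to KCNN4. Its difference and p-values are therefore no separate evidence about this stretch of the chromosome. The nearest tested genes, SMG9 and ZNF45, differed by -0.37 ± 0.63 and 0.11 ± 0.28, and ZNF428 by -0.70 ± 0.52 (limma, adjusted p = 0.854, 0.908 and 0.618). A second probe set of ZNF45 differed by -0.18. Around KCNMA1 on chromosome 10, 9 of 10 such genes were tested and limma called 0 of them (0 at an unadjusted p under 0.05), against the same shares, with differences from -0.18 to 0.56.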
